A study of Mus musculus with 23 samples.

Results

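Krt8, Krt18, Krt19 and Des encode intermediate filament proteins: 3 keratins of simple epithelia and desmin, the filament protein of muscle. They were taken by gene symbol as 4 of the 8683 genes measured, and 5 of 20280 probes report them. Krt8 (probe 6688), Krt19 (probe 16718) and Des (probe 17742) have 1 probe each, and Krt18 is the mean of probes 9754 and 10436. The 4 genes were chosen with their values on these arrays already known, so their differences between groups are given as description, with standard errors and without a test.

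The cells were A404, 1 clone derived from P19, a mouse embryonal carcinoma line, which forms smooth muscle under retinoic acid (RA). Background on this line is that it carries a puromycin resistance gene driven by the smooth muscle actin promoter, so that puromycin removes cells that do not express it. The groups were Control (6 arrays, untreated cells near confluence), RA48 (5 arrays, 48 hours in RA), RA96 (6 arrays, 96 hours in RA) and Puromycin (6 arrays, 96 hours in RA and then 48 hours with puromycin). Puromycin thus came 48 hours later than RA96, so selection, longer culture and any change in RA exposure cannot be told apart between them. RA was given at 1 µmol/L to cells at about 30% confluence, so density at the start differed between Control and the RA groups and cannot be told apart from RA. Every array set Cy5-labelled cell RNA, pooled from 5 to 6 plates, against Cy3-labelled RNA of pooled whole embryos of day 17.5. Each value is a log2 ratio with the cells on top, so that 0 is the level in the embryo pool, and a difference of 1 between groups is a doubling. The deposited table states neither the base nor the direction of its ratios, which were read from their range and from the dyes.

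Keratins form filaments only as pairs of a type I and a type II protein. Krt8, of type II, pairs with Krt18 or Krt19, both of type I, and Krt8 and Krt18 are the keratins that appear earliest in the mouse embryo, in trophectoderm and extraembryonic endoderm. Desmin, a type III protein, assembles with itself, ties muscle contractile units to the membrane and nucleus, and is found in skeletal, heart and much smooth muscle, where vimentin is the other common filament protein.

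In RefSeq on GRCm38, Krt8 lies at chr15:101996711-102004342 on the minus strand and Krt18 at chr15:102028216-102032026 on the plus strand. They point away from each other with 23.9 kb between them, and 2 other listed genes lie in that stretch. Krt19 lies apart in the type I keratin cluster at chr11:100140810-100145926, and Des at chr1:75360292-75368579. The place of each probe within its gene was not looked up. The windows from 250 bases before to 50 bases after the start site are shown for Krt8 and Krt18 and for Des, whose differences between groups on the arrays were so unlike. Krt8 is at chr15:102004293-102004592 (minus strand), Krt18 at chr15:102027966-102028265 (plus) and Des at chr1:75360042-75360341 (plus). Capitals mark matches to the motifs described after the sequences.
Krt8: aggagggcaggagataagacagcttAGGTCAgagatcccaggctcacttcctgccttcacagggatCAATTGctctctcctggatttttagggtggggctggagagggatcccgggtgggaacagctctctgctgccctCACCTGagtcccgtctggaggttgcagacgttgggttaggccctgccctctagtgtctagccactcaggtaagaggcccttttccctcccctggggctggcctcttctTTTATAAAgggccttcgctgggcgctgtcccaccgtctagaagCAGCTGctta
Krt18: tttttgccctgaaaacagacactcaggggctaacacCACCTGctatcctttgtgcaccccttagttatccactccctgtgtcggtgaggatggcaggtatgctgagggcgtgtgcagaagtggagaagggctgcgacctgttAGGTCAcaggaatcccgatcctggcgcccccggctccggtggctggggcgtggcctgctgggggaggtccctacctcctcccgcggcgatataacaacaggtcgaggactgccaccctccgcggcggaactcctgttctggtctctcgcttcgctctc
Des: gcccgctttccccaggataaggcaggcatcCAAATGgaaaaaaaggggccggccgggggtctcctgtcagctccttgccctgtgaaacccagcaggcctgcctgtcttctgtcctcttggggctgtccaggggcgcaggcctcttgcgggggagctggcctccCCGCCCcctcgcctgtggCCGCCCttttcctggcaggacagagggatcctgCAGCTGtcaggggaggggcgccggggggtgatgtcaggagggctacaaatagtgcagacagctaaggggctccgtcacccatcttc
Both strands were searched for 6 motifs. The TATA box, which positions the transcription machinery, was searched as TATAAA. The GC box, bound by Sp1, was searched as GGGCGG, and the E-box, bound by helix-loop-helix factors, as CANNTG. The AP-1 element, bound by Fos and Jun proteins, was searched as TGANTCA. The half-site of nuclear receptors, the retinoid receptors among them, was searched as AGGTCA. The CArG box, which binds serum response factor, was the remaining motif. The Krt8 window held 2 TATA matches, overlapping on opposite strands, at the start site, 3 E-boxes and a half-site at -225 to -220, counted from the start site. The Krt18 window held 1 E-box and a half-site at -108 to -103. In the Des window there were 2 GC boxes, both on the opposite strand, and 2 E-boxes. No AP-1 or CArG letters were in any of the 3 windows. Among 32851 mouse windows of the same length, 13.6% held the TATA box, 35.7% the GC box, 72.3% the E-box, 7.81% the AP-1 element, 16.3% the half-site and 1.63% the CArG box. A match is a description of letters, not of a binding site.

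Within groups the 23 arrays divided into 2 sets, of which the labels say nothing, along the leading component of the deviations from group means, a component with 48.9% of the variance within groups. The first set (11 arrays) held replicates 1 to 3 of Control, RA48 and Puromycin and, of RA96, replicates 1 and 3. The second held the other 12. Arrays of a group correlated at 0.83 to 0.98 within a set and at 0.70 to 0.85 between sets. All 4 groups were present in both sets, so the differences of the 4 genes are also given within each. For other genes only some of the calls that a set or the set as a block changes are given. Across 17863 rows tested with limma, 52.7% differed between groups at an adjusted p under 0.05.

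Krt8 was lower in Control cells than in the embryo pool and far higher in all treated groups. The lowest, median and highest of the 6 Control arrays were -2.44, -1.94 and -1.86. On the 5 RA48 arrays it was at 2.90, 2.96, 3.08, 3.18 and 3.05. On the RA96 arrays it was at 3.19, 3.63 and 3.77 (lowest, median and highest), and on the Puromycin arrays at 2.56, 3.08 and 3.37. Every treated array thus lay above every Control array, and every RA96 array lay above every RA48 array, while the RA48 and Puromycin ranges overlapped. The group means were 24.8% of the embryo level in Control and 8.18-fold, 11.5-fold and 8.07-fold the embryo level in RA48, RA96 and Puromycin.

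RA48 exceeded Control in Krt8 by 5.05 ± 0.15 (SE, n = 5 and 6), a 33.0-fold ratio, with 5.09 in the first array set and 5.03 in the second. By size of this difference it ranked 2 of 8683 genes. RA96 was a further 0.49 ± 0.15 above RA48 (n = 6 and 5), and this step was 0.72 in the first set and 0.33 in the second. After puromycin Krt8 was -0.51 ± 0.14 relative to RA96 (n = 6 each), with -0.37 and -0.74 in the sets. The Puromycin and RA96 ranges overlapped over all arrays, whereas within each set every Puromycin array was the lower. Here and below, a separation within a set rests on 2 to 4 arrays per group. The share of all rows so separated was not counted, and nothing is read from it. Puromycin still exceeded Control by 5.03 ± 0.14, a 32.6-fold ratio.

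Krt18, the usual type I partner of Krt8, was likewise below the embryo level in Control and above it in all treated groups, and highest on average in RA96. On the Control arrays it read -1.54, -1.47 and -1.23 (lowest, median and highest). The RA48 arrays read 1.57, 1.58, 1.74, 0.95 and 0.71. On the RA96 arrays it read 1.61, 2.07 and 3.04, and on the Puromycin arrays 0.91, 1.80 and 2.73 (lowest, median and highest). Control stood apart from all treated arrays, and the ranges of RA48, Puromycin and RA96 ran into each other. The means were 36.8% of the embryo level in Control and 2.48-fold, 4.62-fold and 3.59-fold the embryo level in RA48, RA96 and Puromycin.

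The spread of Krt18, as the mean of its 2 probes, followed the array sets in the treated groups. Its second-set mean minus its first-set mean was -0.80 in RA48, -1.09 in RA96 and -1.46 in Puromycin, against -0.02 in Control. The Control value averages probes that shifted in opposite directions. On Control arrays probe 9754 read -1.54 to -1.32 in the first set and -0.92 to -0.82 in the second. Probe 10436 read -1.70 to -1.15 in the first set and -2.10 to -1.98 in the second. RA96 replicate 2, of the second set, read 2.45, nearer to the first-set arrays than to the other second-set arrays at 1.61 to 1.70. RA48 exceeded Control by 2.75 ± 0.33, a 6.73-fold ratio, with 3.06 in the first set and 2.28 in the second. RA96 exceeded RA48 by 0.90 ± 0.33, with 1.30 and 1.02 in the sets, and within each set the groups did not overlap. Puromycin differed from RA96 by -0.36 ± 0.31, with -0.36 and -0.73 in the sets, and within each set every Puromycin array was again the lower. This small difference was -0.54 without Puromycin replicate 1, -0.18 without Puromycin replicate 5 and -0.03 with array weights. Against Control, Puromycin was higher by 3.28 ± 0.31, with 4.01 and 2.56 in the sets.

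The 2 Krt18 probes gave the same direction in all 4 comparisons and different sizes. Over the 23 arrays they correlated at 0.94. RA48 minus Control was 3.51 ± 0.34 by probe 10436 and 1.99 ± 0.36 by probe 9754. Within the first and second set the difference was 3.55 and 3.30 by probe 10436, and 2.57 and 1.26 by probe 9754. Puromycin minus Control was 4.32 ± 0.32 by probe 10436 and 2.25 ± 0.34 by probe 9754. The fold change of Krt18 therefore depends on which probe is read, and its direction did not.

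**Figure D1:**
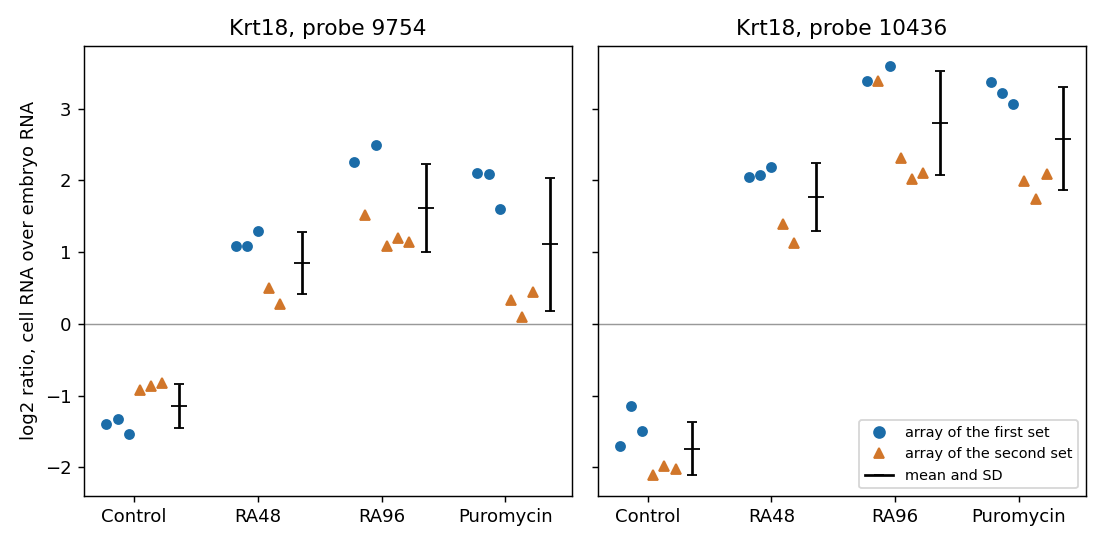
Log2 ratio of cell RNA over embryo RNA (vertical axis) for both Krt18 probes by group, with circles for arrays of the first set, triangles for the second, and bars for mean and SD. Both probes place all treated arrays above all Control arrays, and the second-set arrays of the treated groups mostly sit below those of the first set.

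Krt19, the other type I keratin, stayed below the embryo level in every group and was highest in RA48 and RA96. The Control arrays read -3.51, -2.98 and -2.41 (lowest, median and highest). The RA48 arrays read -0.81, -0.77, -0.73, -1.0 and -1.44. The RA96 arrays read -1.38, -1.0 and -0.81, and the Puromycin arrays -2.18, -2.13 and -2.02. Puromycin thus lay in a narrow band of its own between Control and the RA groups, with no overlap on either side, and RA48 and RA96 overlapped. The means were 12.9%, 51.8%, 48.1% and 22.9% of the embryo level in Control, RA48, RA96 and Puromycin.

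RA48 exceeded Control in Krt19 by 2.01 ± 0.16, a 4.02-fold ratio, with 2.26 and 1.66 in the first and second set. RA96 and RA48 differed by -0.10 ± 0.16, with -0.07 and 0.06 in the sets, less than the spread of either group. Puromycin was -1.07 ± 0.15 relative to RA96, a ratio of 0.477, with -1.25 and -0.99 in the sets. It remained 0.83 ± 0.15 above Control, with 0.94 and 0.73 in the sets, and this difference was 0.40 after quantile normalization between arrays.

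Des was far below the embryo level throughout, and its groups overlapped in every comparison over all arrays. The Control arrays read -4.25, -3.34 and -3.06 (lowest, median and highest), and the RA48 arrays -3.69, -3.63, -3.55, -2.84 and -2.97. The lowest, median and highest were -3.94, -2.72 and -2.40 on the RA96 arrays and -3.29, -2.70 and -2.17 on the Puromycin arrays. The means followed the order Control, RA48, RA96, Puromycin, at 9.03%, 9.90%, 12.7% and 15.5% of the embryo level, and each group's range ran into that of its neighbour. The embryo pool contains developing skeletal and heart muscle, which express Des, so a low ratio does not give the amount of Des RNA in the cells.

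Des also moved with the array sets, in the treated groups in the direction opposite to Krt18. Its second-set mean exceeded its first-set mean by 0.52 in Control, 0.72 in RA48, 1.24 in RA96 and 0.89 in Puromycin. These shifts of 0.52 to 1.24 stand beside differences between groups of 0.13 to 0.78. RA48 minus Control was 0.13 ± 0.30, with 0.10 and 0.31 in the first and second set, -0.18 after quantile normalization, -0.24 with array weights and -0.02 without Control replicate 3. RA96 minus RA48 was 0.36 ± 0.30, with -0.18 and 0.34 in the sets, so its sign depended on the set. It was 0.55 without RA96 replicate 3 and 0.83 with array weights. Puromycin minus RA96 was 0.29 ± 0.28, with 0.67 and 0.32, and within each set every Puromycin array was the higher. It was 0.10 without RA96 replicate 3 and 0.00 with array weights. Puromycin minus Control was 0.78 ± 0.28, a 1.72-fold ratio, with 0.60 and 0.97, and the groups did not overlap in the second set. After quantile normalization it was 0.38.

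**Figure D2:**
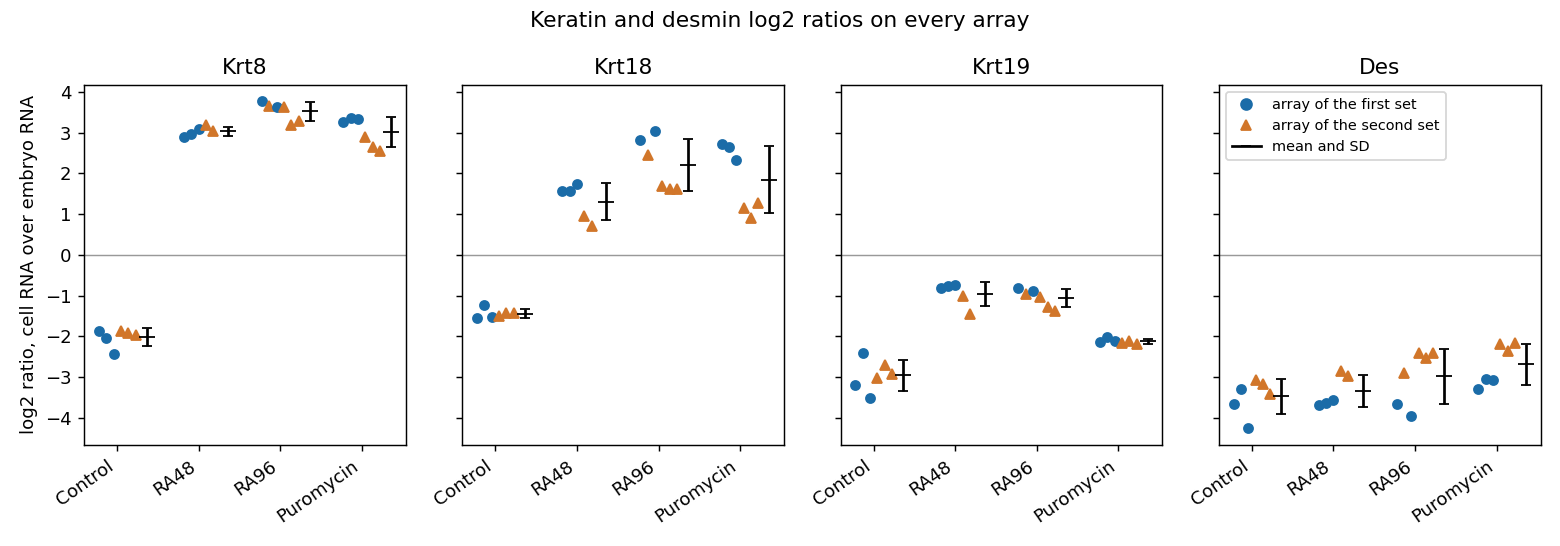
Log2 ratio of cell RNA over embryo RNA (vertical axis, 0 is the embryo level) on every array for Krt8, Krt18, Krt19 and Des, with circles for the first array set, triangles for the second, and bars for mean and SD. The treated arrays of the 3 keratins lie above all Control arrays, Krt19 is lower again after puromycin, and Des remains between -4.25 and -2.17 with the sets apart.

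Keratins and desmin therefore differed most at the first step. From Control to RA48 the groups did not overlap for Krt8, Krt18 and Krt19, all higher, in a comparison in which 9.35% of all rows were non-overlapping and higher. From RA48 to RA96 only Krt8 of the 4 genes had non-overlapping groups, higher, against 4.81% of all rows. From RA96 to Puromycin only Krt19 did, lower, against 1.76% of all rows. Between Puromycin and Control the 3 keratins did, higher, against 13.8% of all rows. Nothing is read from these counts, since the genes were chosen on the same values, and neighbouring comparisons share arrays.

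The change in a keratin minus the change in Des puts the contrast on 1 scale. Its SE comes from per-array differences in the 2 groups compared. The SEs of single genes above come from the limma fit of all 4 groups, so the 2 kinds are not alike. For RA48 against Control it was 4.91 ± 0.18 for Krt8 (4.99 and 4.72 in the first and second set), 2.62 ± 0.41 for Krt18 (2.96 and 1.97) and 1.87 ± 0.31 for Krt19 (2.16 and 1.36). For RA96 against RA48 it was 0.13 ± 0.37, 0.54 ± 0.65 and -0.47 ± 0.45 in the same gene order. Within the first and second set it was 0.89 and -0.01 for Krt8, 1.48 and 0.67 for Krt18, and 0.10 and -0.29 for Krt19, so that only Krt18 of the 3 kept its sign in both. For Puromycin against RA96 it was -0.80 ± 0.48, -0.65 ± 0.75 and -1.36 ± 0.41. RA96 had 2 first-set and 4 second-set arrays and Puromycin 3 and 3, so these values also carry the set shift. Within the first and second set the contrast was -1.04 and -1.06 for Krt8, -1.03 and -1.05 for Krt18, and -1.92 and -1.31 for Krt19. It was thus negative for each keratin in both array sets. For Puromycin against Control it was 4.24 ± 0.36, 2.5 ± 0.56 and 0.05 ± 0.25, so that over the whole course Krt19 and Des were higher by similar amounts. For Krt19 that value was 0.34 in the first set and -0.24 in the second.

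**Figure D3:**
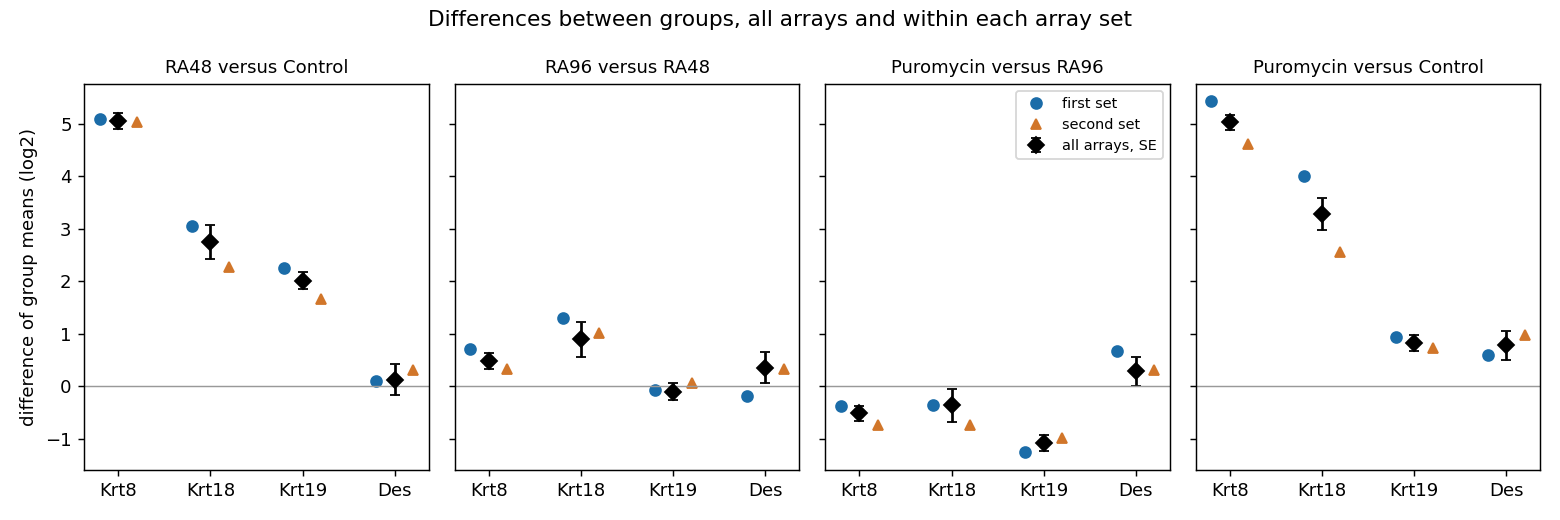
Difference of group means in log2 units (vertical axis) for the 4 genes in each comparison, with diamonds and SE bars for all arrays, circles for the first array set and triangles for the second. Keratin differences for RA48 against Control run from 2.01 to 5.05 over all arrays while that of Des is 0.13, and for Puromycin against RA96 the keratins lie below 0 and Des above it.

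Across the 23 arrays, which share 4 groups and 1 embryo pool, Krt8 correlated at 0.95 with Krt18 and at 0.82 with Krt19. Once group means were taken out the correlations were 0.66 and 0.38. Des correlated at 0.35 with Krt8, 0.17 with Krt18 and 0.08 with Krt19. With the array sets taken out these were 0.52, 0.50 and 0.19. Within groups, with the sets left in, Des and Krt18 correlated at -0.81.

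Among 8378 genes compared, those with the highest correlation with Krt8 were Pmp22, a myelin membrane protein (r = 0.997), Wls, which carries Wnt proteins to the cell surface (0.987), Efna5, a guidance ligand (0.985), Errfi1, an inhibitor of EGF receptor signalling (0.985), and Creb3l2 (0.982). Pmp22 averaged -2.48, 3.06, 3.30 and 2.71 in Control, RA48, RA96 and Puromycin. For Krt18 they were Sat1, Anxa3, Col4a5, Stx7 and Tmem43, and Sat1, an enzyme of polyamine breakdown, led with r = 0.981. For Krt19 they were Mecom, Rarb, Plpp3, Clu and Lgals3, with Mecom, a zinc finger factor, at 0.966. Rarb, a retinoic acid receptor whose gene is itself a textbook retinoic acid target, correlated with Krt19 at 0.962 and averaged -0.24, 2.77, 2.57 and 1.01 in Control, RA48, RA96 and Puromycin. For Des they were Igfbp5, Ctsh, Olfml2b, Mlc1 and Tnks1bp1. With the array sets taken out, Pmp22 remained first for Krt8 and Mecom for Krt19, whereas Myl6 led for Krt18 and Ndrg1 for Des.

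The other filament genes came from lists of 81 genes, of which 25 were measured, and these were tested with limma and Benjamini-Hochberg adjustment over all 17863 rows. For RA48 against Control 8 rose and 1 fell, where 11.9% of all rows rose and 14.1% fell. The list's median difference was 0.28, against -0.06 over all rows. For RA96 against RA48 10 rose and 1 fell (10.4% and 9.42% of all rows), with a median of 0.28 against -0.02. For Puromycin against RA96 2 rose (3.17% of all rows), with a median of -0.01 against -0.01. For Puromycin against Control 11 rose and 2 fell (19.8% and 26.4% of all rows), with a median of 0.25 against -0.09.

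Few other keratins were measured, and 1 of 5 passed over all arrays, in RA48 against Control and in Puromycin against Control. Of all rows 11.9% and 19.8% rose in these comparisons, and nothing is read from so small a count. Krt13, a type I keratin of stratified internal epithelia, rose by 0.99 ± 0.22 in RA48 against Control (adjusted p = 0.00164) and by 0.64 ± 0.21 in Puromycin against Control (adjusted p = 0.0165, and 0.0674 in the second array set alone). Krt10 and Krt14, both keratins of stratified epithelia, and Krt7 and Krt79 did not pass in any comparison over all arrays. Krt7, the type II keratin of ducts, differed by 0.36 between Puromycin and Control (adjusted p = 0.128). With the array set as a block it passed (adjusted p = 0.00138), as it did in the second set alone (0.46, adjusted p = 0.00532). In that set Krt14 passed in the same comparison (0.45, adjusted p = 0.00234), and Krt79 in RA48 against Control (0.44, adjusted p = 0.0488).

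Vimentin, the mesenchymal type III protein, rose along the RA course. Vim averaged 1.70 in RA48 and -0.43 in Control, a rise of 2.13 ± 0.20 (adjusted p = 2.65e-08). It rose by a further 0.83 ± 0.20 in RA96 against RA48 (adjusted p = 0.00587), but by 0.43 with adjusted p = 0.0719 in the second array set alone. The Puromycin mean was 3.00, which was 3.43 ± 0.19 above Control (adjusted p = 1.74e-12). Puromycin minus RA96 was 0.47 ± 0.19 with adjusted p = 0.179, and with the array set as a block it was 0.54 with adjusted p = 0.0120. All 4 Vim probes had the same sign in each comparison. Synm, which encodes synemin, a partner of desmin and vimentin, passed in no comparison, with differences from -0.15 to 0.08.

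Nuclear lamins moved in both directions. Lmna, the lamin of differentiated cells, averaged -2.66 in Control, -2.23 in RA48, -1.35 in RA96 and -0.27 in Puromycin. It rose by 0.87 ± 0.17 in RA96 against RA48 (adjusted p = 0.000945) and by 1.08 ± 0.16 in Puromycin against RA96 (adjusted p = 0.000175). Lmnb2, a B-type lamin, fell by 0.72 ± 0.12 in Puromycin against Control (adjusted p = 5.12e-05), while Lmnb1 passed in no comparison over all arrays. With the array set as a block Lmnb1 passed in 3: RA48 against Control (0.50, adjusted p = 0.00865), Puromycin against RA96 (-0.74, adjusted p = 0.00111) and Puromycin against Control (-0.58, adjusted p = 0.00114). Lmna then also passed in RA48 against Control (0.47, adjusted p = 0.000566, against 0.0609 without the block). Nefl, a neurofilament protein, fell by 0.78 ± 0.12 in RA48 against Control (adjusted p = 4.46e-05) and rose by 0.85 ± 0.12 in RA96 against RA48 (adjusted p = 6.46e-05). Nes, the filament protein of progenitor cells, rose by 0.74 ± 0.25 in RA96 against RA48 (adjusted p = 0.0427).

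Leaving out a single array ended several of these calls. The fall of Nefl in Puromycin against Control (-0.33, adjusted p = 0.0262) had adjusted p = 0.0545 to 0.0611 without Control replicate 1 or 5 or Puromycin replicate 1, 2 or 3. The Nes rise in RA96 had 0.0671 to 0.105 without RA48 replicate 1, 2 or 3 or RA96 replicate 2, 4, 5 or 6. A Nes rise of 0.69 in Puromycin against Control (adjusted p = 0.0241) had 0.0570 to 0.0694 without Control replicate 1 or 3 or Puromycin replicate 4, 5 or 6. Lmnb2 fell by 0.39 in RA96 against RA48 (adjusted p = 0.0372), which became 0.0518 to 0.121 without RA48 replicate 1, 2 or 3 or RA96 replicate 2, 4, 5 or 6.

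Linkers and chaperones of the filaments made up 13 of the 25 genes, with 6 higher for RA48 against Control, 6 for RA96 against RA48, 1 for Puromycin against RA96 and 7 for Puromycin against Control. The shares of all rows that rose were 11.9%, 10.4%, 3.17% and 19.8% in these comparisons. Cryab, a small heat shock protein that binds desmin filaments in muscle, averaged 0.24 in Puromycin and -2.80 in Control, a rise of 3.04 ± 0.23 (adjusted p = 4.25e-10). It rose by 1.23 in RA48 against Control (adjusted p = 0.000544) and by 1.60 in RA96 against RA48 (adjusted p = 0.000110). Hspb1, a related chaperone, rose by 1.42 ± 0.19 in RA96 against RA48 (adjusted p = 2.17e-05) and by 0.67 ± 0.18 in Puromycin against RA96 (adjusted p = 0.0324). The last value became 0.0519 to 0.0802 without RA96 replicate 1, 2, 3 or 5 or Puromycin replicate 1, 2, 3 or 4. Flnc, a muscle filamin, rose by 2.08 ± 0.10 in Puromycin against Control (adjusted p = 2.75e-13).

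Junction and linker proteins moved as well. Dsc2, a desmosomal cadherin, rose by 1.49 ± 0.21 in RA48 against Control (adjusted p = 1.08e-05) and averaged 0.45 in Puromycin against -0.48 in Control. Jup, which encodes plakoglobin of desmosomes and adherens junctions, rose by 0.87 ± 0.24 in RA96 against RA48 (adjusted p = 0.0134), where 1 of its 2 probes gave 1.60 and the other 0.13. Pkp2, a desmosome plaque protein, rose by 0.40 in RA48 against Control (adjusted p = 0.00126) as a mean of probes at 0.95 and -0.15. Dst, a large linker of filaments, rose by 1.04 in Puromycin against Control (adjusted p = 5.28e-10) over 4 probes, of which probe 16477 gave -0.03. Plec, which encodes plectin, had no call over all arrays, yet for Puromycin against Control it was -0.61 in the first array set (adjusted p = 0.000627) and 0.89 in the second (adjusted p = 4.29e-05).

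**Figure D4:**
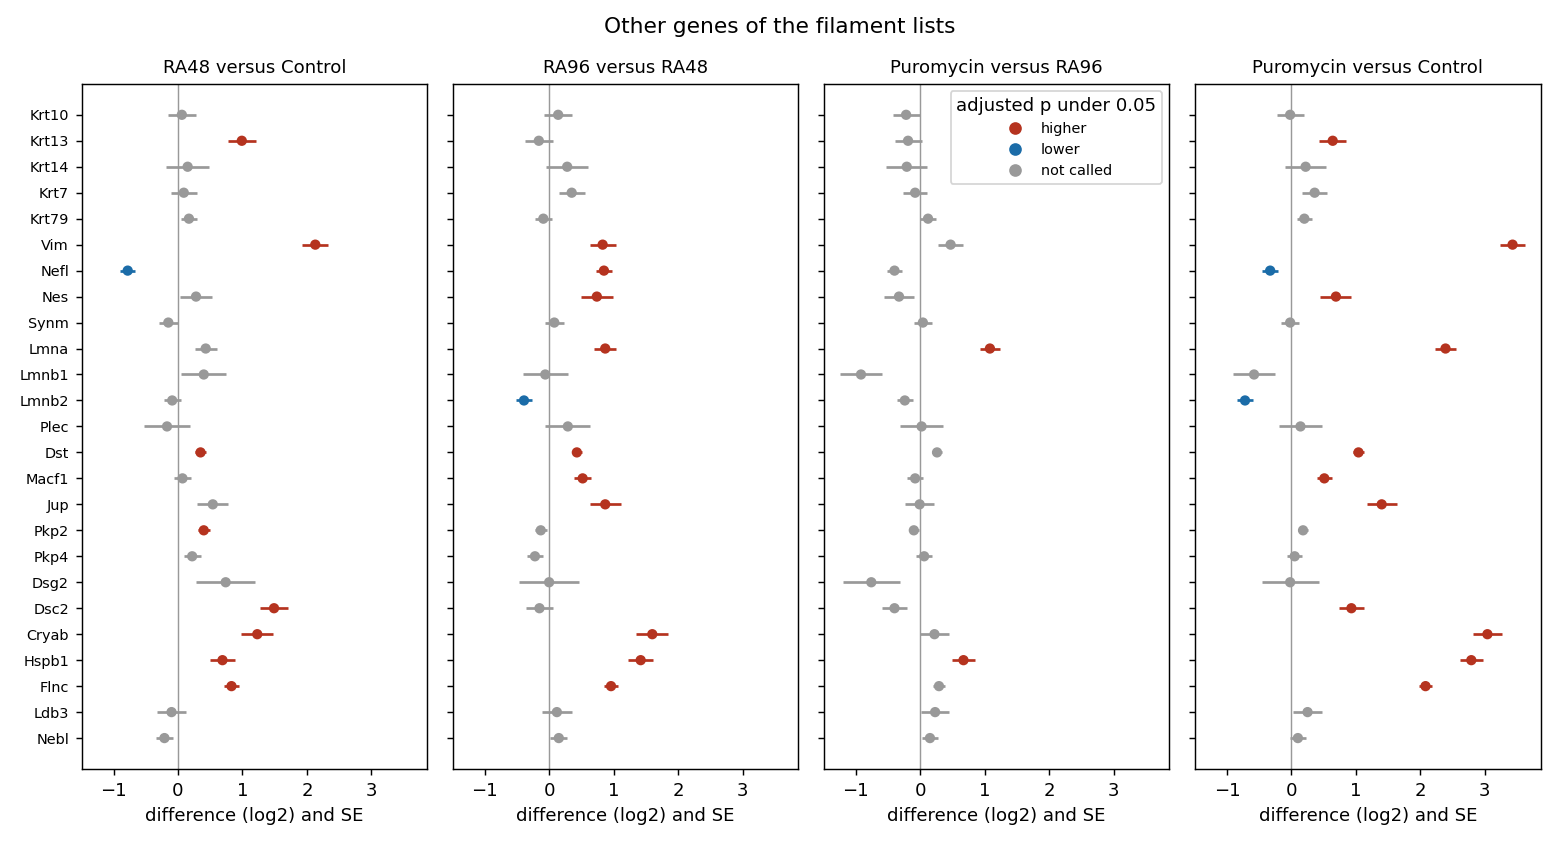
Difference of group means in log2 units with SE (horizontal axis) for the 25 other filament genes measured (down the page) in each comparison, coloured red or blue where the gene was higher or lower at an adjusted p under 0.05 and grey otherwise. Vim, Cryab, Hspb1, Flnc and Lmna lie farthest to the right for Puromycin against Control, and the keratins other than Krt13 are grey throughout.

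Marker lists of cell types were measured on the same arrays, some moving with the keratins and others not, and their part in the values was not tested. In bulk RNA, fewer cells of a type and less RNA per cell cannot be told apart. Of 8 smooth muscle genes 5 rose in RA48 (11.9% of all rows) and 6 in Puromycin (19.8%), both against Control. Acta2, smooth muscle actin, rose by 4.56 ± 0.22 in RA48 against Control (adjusted p = 4.24e-13) and by 2.21 ± 0.22 in RA96 against RA48 (adjusted p = 3.42e-07). In Puromycin against RA96 it differed by 0.52 (adjusted p = 0.163), with every Puromycin array the higher. That difference passed with the array set as a block (0.59, adjusted p = 0.0302), in the second set alone (0.77, 0.00208), after quantile normalization (0.54, 0.00891) and with only the groups compared in the fit (0.0245). As background, the Acta2 promoter drives the puromycin resistance gene of these cells. Over all arrays 0 of the 8 genes rose and 0 fell in this comparison (3.17% and 2.10% of all rows). With the set as a block Actg2, another smooth muscle actin, was also higher (0.66, adjusted p = 0.0163). Mylk, a myosin kinase, was then lower (-1.33, adjusted p = 8.04e-05). The mean log2 ratio of the smooth muscle list ran from -3.20 to -1.61 on the Control arrays, -1.06 to -0.22 in RA48, -0.33 to 0.75 in RA96 and -0.48 to 0.87 in Puromycin. Cardiac and skeletal genes, which Des would accompany in striated muscle, had means of -1.82 to -0.90, -1.51 to -0.71, -1.57 to -0.66 and -1.46 to -0.49 in the same group order, and 3 of 13 rose and 1 fell in Puromycin against Control, near the 19.8% of all rows that rose there.

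The epithelial list, from which the keratins were left out, moved in both directions. Of 11 genes 4 rose and 2 fell in RA48 against Control (11.9% and 14.1% of all rows), with a median of -0.18. Cldn4, a tight junction claudin, rose by 2.19 ± 0.32 (adjusted p = 1.29e-05) and Cdh1, E-cadherin, by 0.52 ± 0.15 (adjusted p = 0.00946). Epcam, an adhesion protein of epithelia and of pluripotent cells, fell by 2.00 ± 0.26 (adjusted p = 3.39e-06). In RA96 against RA48 0 of the 11 rose and 2 fell (10.4% and 9.42% of all rows). In Puromycin against RA96 3 of the 11 fell (2.10% of all rows), Cdh1 by 0.94 ± 0.14 (adjusted p = 0.000181). In Puromycin against Control 2 rose and 6 fell (19.8% and 26.4% of all rows). The list's median difference there was -0.69, against -0.09 over all rows. The list's mean ran from -0.74 to -0.31 on Control arrays, -0.68 to -0.54 in RA48, -0.87 to -0.60 in RA96 and -1.23 to -0.85 in Puromycin.

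Of 13 extraembryonic endoderm genes measured, many of which also mark basement membrane production, 10 rose in RA48 against Control (11.9% of all rows), led by Gata6 at 2.04 ± 0.18 (adjusted p = 9.87e-09). In Puromycin against Control 10 rose (19.8%), led by Col4a2, a basement membrane collagen, at 3.34 ± 0.15 (adjusted p = 3.59e-14). The members did not all keep the same course. Lama1, a laminin chain, rose by 1.67 in RA48 against Control (adjusted p = 5.65e-07) and fell by 0.62 in RA96 against RA48 (adjusted p = 0.0268), although by 0.03 in the second set alone (adjusted p = 0.946). In Puromycin against Control Lama1 differed by -0.06, Foxa2 by 0.09 and Gata4 by -0.09, none passing. The list's mean was -1.60 to -0.98 in Control, -0.40 to -0.31 in RA48, -0.00 to 0.15 in RA96 and 0.06 to 0.25 in Puromycin. Of 5 trophectoderm genes only Gata3 rose in RA48 against Control (0.93, adjusted p = 8.77e-05) and 0 fell (11.9% and 14.1% of all rows). In RA96 against RA48 1 of the 5 rose and 1 fell (10.4% and 9.42% of all rows). In Puromycin against Control 1 rose and 2 fell (19.8% and 26.4% of all rows). Of 2 mesothelial genes Wt1 rose by 1.23 in RA96 against RA48 (adjusted p = 0.000104) and fell by 0.93 in Puromycin against RA96 (adjusted p = 0.00259). Of all rows 10.4% rose and 2.10% fell in these comparisons. In Puromycin against Control 1 of the 2 rose (19.8% of all rows). Of 6 neural genes only Stmn2 fell in RA48 against Control (-0.24, adjusted p = 0.0488), near the 14.1% of all rows. In RA96 against RA48 1 neural gene rose (10.4% of all rows). Another 1 fell in Puromycin against RA96 (2.10%) and 1 in Puromycin against Control (26.4%). Of 5 pluripotency genes 4 fell in RA48 against Control (14.1% of all rows), with Utf1 the most at -3.49 (adjusted p = 8.91e-15).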

How the data were processed

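Two-colour Agilent arrays were analysed. Per the labels, a G2565AA scanner and Agilent Feature Extraction were used, and the dyes were not swapped. The authors deposited 1 table of log10 ratios (-2.31 to 2.46), whose base, centring and direction it does not state. Base 10 was read from the range, and the direction from the dyes: Alb, a fetal liver gene, averaged -4.27, -4.37, -4.28 and -4.12 in Control, RA48, RA96 and Puromycin. Array medians on the log2 scale ran from -0.077 to 0.020. Intensities were not used here, so no detection limit is given, and the number of arrays limits the precision.

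Values were divided by 0.301 to give log2 ratios. Of 21446 rows, 1166 (5.44%) that looked like control spots were left out. Of the other 20280 probes, 11100 had 1 gene symbol in the platform annotation, 442 several and 8738 none; probes of a gene were averaged (1926 genes had more than 1). The 17863 rows were fitted with limma 3.58.1 in R 4.3.3 (group means, eBayes, two-sided, Benjamini-Hochberg over all rows, called at an adjusted p under 0.05). On simulated data a log2 change of 1 was recovered for 79.0%, 79.0%, 77.0% and 84.0% of the rows changed by that amount. These shares are for RA48 against Control, RA96 against RA48, Puromycin against RA96 and Puromycin against Control. The simulated noise was independent between rows and held no array sets, and recovery of smaller changes is not given. Whether the replicates came from separate cultures is not in the labels; p-values therefore reflect array-to-array spread, possibly technical.

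The genes and lists were chosen with earlier results of these data known. Named were the 4 genes, Vim, Synm, Plec, Dsp (no probe of its own symbol) and Acta2; up to 4 called genes each way per filament list and up to 3 per marker list, by size; and the 5 genes most correlated with each of the 4. A few filament and marker genes outside this rule were named after their values were seen. Promoter windows came from RefSeq on GRCm38.p6 and matched 3 of the 4 genes; Krt19 had none. Alternatives were array scaling, array sets, replicate block, array weights, samples in the fit, single probes, control-like rows and leaving out each array.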

Additional observations from a re-analysis of the deposited data

Results flagged for a closer look

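Krt8 on Control replicate 3, an array of the first set, read -2.44, while the other 5 Control arrays lay between -2.03 and -1.86. The gap to its nearest neighbour took up most of the range of the group. Of 84 gene and group combinations examined, this was the only 1, where chance alone marks about 1 in 20. Every treated array still lay far above it, and leaving out single arrays moved the RA48 minus Control difference of Krt8 only between 4.96 and 5.08.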

How the results depend on the processing

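Array weights and the array sets moved the counts of calls. With the set as a block the calls numbered 7029 for RA48 against Control (4642 without), 5726 for RA96 against RA48 (3540) and 2281 for Puromycin against RA96 (942). Within the first and second set alone they were 6697 and 2267 for RA96 against RA48, and 1691 and 1638 for Puromycin against RA96. Array weights gave 8135, 10273 and 2609. Leaving out single arrays gave 2227 to 4198 for RA96 against RA48, with 2239, 2305 and 2227 without RA48 replicates 1, 2 and 3. It gave 641 to 1083 for Puromycin against RA96. Filament calls for RA48 against Control (9) became 15 with the set block and 14 in each set. For RA96 against RA48 (11) they became 17 with weights. For Puromycin against RA96 (2) they became 10, 8 and 8 with the set block and in each set, 6 with weights, and 1 to 3 without single arrays. It was 1 without RA96 replicate 1, 3 or 5 or Puromycin replicate 1, 2 or 3. Counts for Puromycin against Control and over all 4 groups stayed within 1.5 times under these settings.

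Of the 4 genes' differences 184 moved by less than the spread between replicates and 12 by more. Some differences near 0 changed sign. For RA96 against RA48, Des was -0.18 in the first set and Krt19 0.06 in the second. Des for RA48 against Control was -0.18 after quantile normalization, -0.24 with weights and -0.02 to 0.22 without single arrays. Krt18 in RA48 against Control was 2.28 in the second set, and 1.99 and 3.51 by single probes. Krt8 in RA96 against RA48 was 0.72 in the first set, and Krt19 in Puromycin against RA96 was -1.25 there. In Puromycin against Control, Krt8 was 5.43 and 4.62 in the sets. Krt18 was 4.01 and 2.56 in the sets and 2.25 and 4.32 by probe. Krt19 was 0.40 after quantile normalization.

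Signs turned for uncalled Synm and Plec and for single probes. Synm was 0.14 (RA48 against Control) and -0.14 (RA96 against RA48) with weights, and -0.02 and -0.09 with the set block and in the second set for Puromycin against RA96. For Puromycin against Control it was 0.00 after median subtraction, 0.11 with weights and 0.01 without Puromycin replicate 4. Plec in Puromycin against RA96 was -0.52 in the first set, -0.26 with weights and -0.19 to 0.02 without single arrays, lowest without Puromycin replicate 4. In Puromycin against Control it was -0.61, -0.09 with weights and -0.04 to 0.35 without single arrays, lowest without Puromycin replicate 6. Dst was -0.26 (RA48) and -0.03 (Puromycin) against Control by probe 16477, and Pkp2 -0.15 by probe 12946. The cause was not tested, except that a single set holds fewer arrays.

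Replicate numbers were not taken to pair the samples, and whether they do is not settled. Of 33 same-numbered pairs 30 correlated above 0.1 in their deviations, from -0.46 to 0.67, and 4 of 23 arrays correlated best with their own number. The array sets largely follow the replicate numbers, so a pairing cannot be told apart from them here. With the replicate block, Puromycin against RA96 had 1784 calls and 7 filament calls.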

Other observations

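Of 25 genes for factors known at the control regions of Krt8, Krt18, Krt19 or Des, 17 were measured. For RA48 against Control 7 rose, 1 fell and 9 did not pass (11.9% of all rows rose and 14.1% fell), with a median difference of 0.19 against -0.06 over all rows. Fosl2, a Fos-family protein, averaged 0.25 in RA48 and -1.77 in Control, a rise of 2.02 ± 0.10 (limma adjusted p = 4.24e-13). Jun, its usual AP-1 partner, rose by 1.48 ± 0.27 (adjusted p = 0.000175). Gata6, which the endoderm list also holds, rose by 2.04 ± 0.18 (adjusted p = 9.87e-09), and Sp1, the GC-box factor, fell by 0.43 ± 0.10 (adjusted p = 0.00267). Klf4 averaged -0.40 in Puromycin and -1.56 in RA96, a rise of 1.15 ± 0.20 (adjusted p = 0.000979), and was 2.87 ± 0.20 above Control in Puromycin (adjusted p = 7.71e-11). Fosl1 rose by 1.42 ± 0.31 in Puromycin against RA96 (adjusted p = 0.00809). Its Puromycin arrays spread from 0.41 to 2.51 (SD 0.99), and this range overlapped that of RA96, which reached 0.59. Srf, which encodes the CArG-box factor, passed in no comparison, with 0.23 in Puromycin against Control (adjusted p = 0.110).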
